A study of Mus musculus with 304 samples.

Results

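The proteins of the cytosolic ribosome are encoded by a large family of genes, named Rpl for the large subunit and Rps for the small subunit. The family was taken here as every gene symbol that starts with Rpl or Rps and a digit, together with Rpsa, Rplp0, Rplp1 and Rplp2. Symbols containing -ps, which mark pseudogenes, and the S6 kinases were left out. This gave 87 of the 22800 genes in the table, 52 with a name starting Rpl and 35 with a name starting Rps. The name rule also takes in Rps19bp1, which encodes a binding protein of Rps19 rather than a ribosomal protein, and Rps4l, which the GENCODE annotation lists as a transcribed pseudogene.

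The cells were granule cells of the mouse dentate gyrus, which project mossy fibres to area CA3. Each was sampled by Patch-seq: cytosol was aspirated through the recording pipette and every library holds the RNA of 1 cell. Kainic acid, an agonist of glutamate receptors that provokes seizures, was given as a hippocampal microinjection (70 nl at 5 mM). The groups were 31 control cells from mice without an injection, 58 cells from the hippocampus injected 1 day earlier and 29 cells at 14 days, whose side is not labelled. The other experiment used adeno-associated virus (AAV), with 59 cells 1 month after a virus for GFP and 71 cells 1 month after a virus for Id2, an inhibitor of basic helix-loop-helix factors. The sources used here do not give strain, age, viral promoter or the animal of each cell. Because no animal is named, each group stands as 1 sample, no difference between groups was tested, and every difference below is a description of these libraries.

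A ribosome carries 1 copy of most of its proteins, so cells make these proteins in matched amounts. Their mRNAs typically begin with a terminal oligopyrimidine (TOP) motif, a C at the first base followed by an unbroken run of C and T, which ties their translation to the kinase mTOR through the binding protein LARP1. In neurons, ribosomal protein mRNAs are abundant in the soma and are also found in axons and dendrites, and their translation responds to growth signals and activity.

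The start windows of 8 members that recur below are shown because the TOP motif is the sequence feature the family is known for. Each window runs from 10 bases before the annotated start to 20 bases from it, 5′ to 3′, from RefSeq on GRCm38.p6. Capitals mark a C followed by at least 4 bases that are C or T, read from the annotated start on where the start is such a C, and otherwise at its first place in the window. In the first 5 genes the marked stretch is read from the annotated start, and the base before it is also C or T, so the pyrimidine tract reaches upstream of the capitals. In Rps7 the run begins further in, and Rpl4 and Rpl41 hold none in the window.
Rpl15: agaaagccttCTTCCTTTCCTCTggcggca
Rps15a: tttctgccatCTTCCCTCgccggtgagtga
Rps6: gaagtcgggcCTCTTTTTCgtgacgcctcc
Rpl14: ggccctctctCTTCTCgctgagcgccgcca
Rpl35: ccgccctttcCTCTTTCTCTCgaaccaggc
Rps7: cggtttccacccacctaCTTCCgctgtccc
Rpl4: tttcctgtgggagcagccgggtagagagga
Rpl41: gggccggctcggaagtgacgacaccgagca
These windows lie at chr14:18270967-18270996 (minus strand) for Rpl15, chr7:118116128-118116157 (minus) for Rps15a, chr4:86857348-86857377 (minus) for Rps6, chr9:120571507-120571536 (plus) for Rpl14 and chr2:39005112-39005141 (minus) for Rpl35. Those of Rps7, Rpl4 and Rpl41 lie at chr12:28635934-28635963 (minus), chr9:64173377-64173406 (plus) and chr10:128549149-128549178 (minus). A window was found for 66 of the 87 members. The annotated start was such a C in 14 of these (21.2%), against 3.01% of 27025 genes with a RefSeq promoter. On the gene's own strand and within 10 bases of the start the run was found in 40 members (60.6%) and in 34.4% of all genes.

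The groups were unlike in depth and in cell type markers. A median control cell had 1738610 reads, a day 1 cell 6834545, a day 14 cell 7615492, a GFP cell 3957794 and an Id2 cell 3317227. Granule cell markers summed to 4049 CPM (a gene's reads of each 1000000 counted in genes, over the summed cells of a group) in the control group, 1814 at day 1, 1711 by day 14, 4474 in GFP cells and 3103 in Id2 cells. Of 14 such markers, Lct was at 0 in control cells and none was at 0 elsewhere. The 17 microglia markers summed to 3971, 857, 7164, 189 and 645 CPM in the same order, and at least 16 of them had reads in every group. A cell reached 1000 CPM of these markers in 17 of 31 control cells, 8 of 58 at day 1, 20 of 29 by day 14, 2 of 59 GFP cells and 11 of 71 Id2 cells. Endothelial markers stayed at or below 6.61 CPM in every group. The titles of the cells form series: K in both kainate groups, J, T or a bare number in control cells and IDS in both virus groups, so title series and kainate cannot be told apart.

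Summed over the family, ribosomal protein reads were 1.07% of all counted reads in the control group, 1.46% at day 1, 0.944% by day 14, 1.12% in GFP cells and 1.16% in Id2 cells. Control cells had a read of 43 to 84 members, with a median of 70, and the medians were 77.5 at day 1, 76 by day 14, 62 in GFP cells and 60 in Id2 cells. With each cell thinned to 100000 reads, which left out 2 control cells, the medians were 65, 74.5, 68, 55 and 52. Most of the family was therefore seen in most single cells, and the fewest members per cell were seen in the virus groups. The ratio of large subunit to small subunit reads was 1.68 in the control group, 1.67 at day 1, 1.60 by day 14, 1.80 in GFP cells and 1.68 in Id2 cells.

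Levels were uneven across the family although the proteins are made in matched amounts. Per kilobase of transcript in control cells, Rpl41, the smallest ribosomal protein, stood at 572 CPM. Rps14, at the small subunit's platform, stood at 415 CPM per kilobase, Rpl3, beside the peptidyl transferase centre, at 402 and Rpl4, whose extension lines the exit tunnel, at 387. In GFP cells Rpl41 stood at 782 CPM per kilobase and Rpl4 at 608. Among the lowest members, Rpl36a stood at 91.3 CPM per kilobase in control cells, and Rpl39l, Rpl10l, Rpl3l and Rps27rt did not reach the level set for a measured gene, a group with 5 CPM or more and a read in 20% or more of its cells. The other 83 members reached it in all 5 comparisons. Many ribosomal protein genes have near-identical processed copies elsewhere in the genome: 50 of the 87 members had more than 50% of the 50-base windows of their transcript in another gene's transcript. This share was 98.7% for Rps27, 96.3% for Rpl10, 16.5% for Rpl4 and 4.54% for Rps3. The sources used here do not say how reads in shared windows were counted.

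At 1 day after kainate the family stood higher than in control cells. The members summed to 10674 CPM in control cells (exact Poisson interval at 95%, 10649 to 10699, which covers counting error only) and 14561 CPM at day 1 (14550 to 14572), or 1.36-fold. Single control cells ran from 5135 to 35464 CPM with a median of 8899, and single day 1 cells from 7006 to 42924 CPM with a median of 13120. The ranges overlapped, 52 of 58 day 1 cells lay above the control median, and no day 1 cell lay below the lowest control cell.

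**Figure D1:**
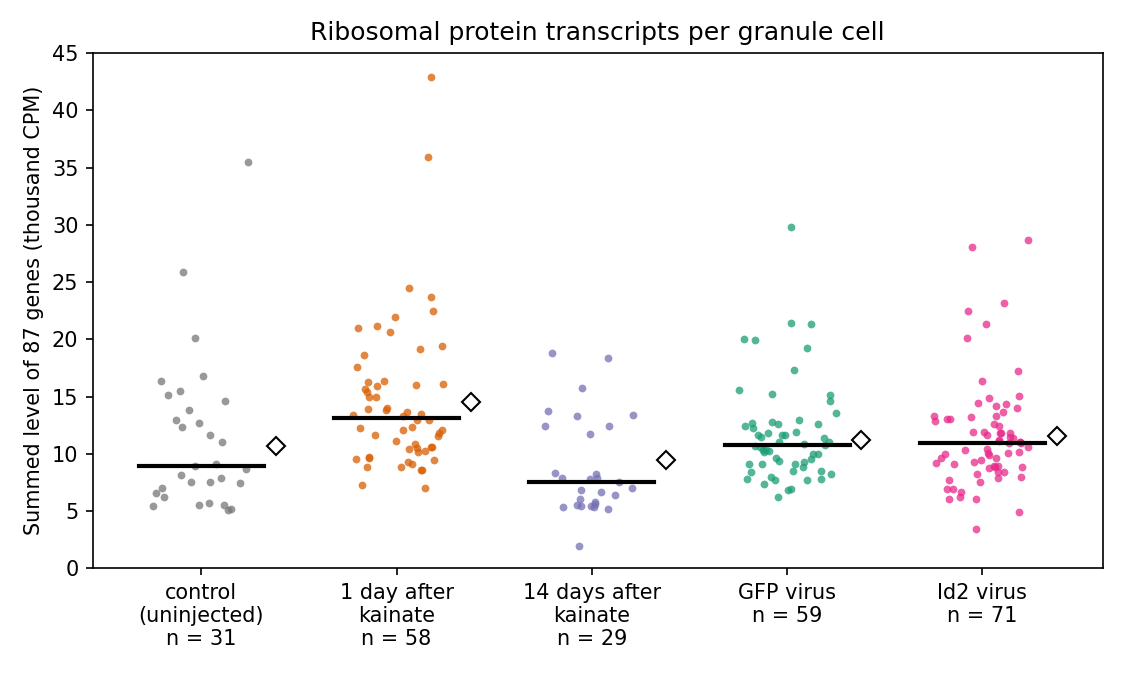
Summed level of the 87 genes in each cell, in units of 1000 CPM, by group; each point is 1 cell, the bar is the median over cells and the diamond is the level of the summed counts. The day 1 cells have the highest median, 13120 CPM, and the day 14 cells the lowest, 7533 CPM, and all groups overlap.

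Gene by gene, 67 of 83 measured members were above 0 on the log2 ratio of CPM plus 1 at day 1 against control and 16 below, with a median of 0.45 beside 0.17 for all 9079 measured genes. Past 2-fold, 10 members were higher and 1 lower. Of all measured genes 23.2% were 2-fold or more higher and 15.2% 2-fold or more lower. In these cells the family had fewer large differences in both directions than genes at large and a moderate upward displacement of most members. The shares were not matched for level: the lowest measured member stood at 29.6 CPM in control cells, and genes were measured from 5 CPM. Without the cells rich in microglia markers, described below, 38 of 83 members were 2-fold higher where 30% of all genes were. The subunits were alike, with medians of 0.45 for the 49 Rpl genes and 0.45 for the 34 Rps genes.

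The largest ratio at day 1 belonged to Rps7, a small subunit protein that can also bind the p53 regulator Mdm2. Rps7 (ENSMUSG00000061477.4, chromosome 12, 28630854 to 28635953, minus strand) ran from 0 to 369 CPM over control cells with a median of 35.5, and from 0 to 509 CPM over day 1 cells with a median of 174. The groups overlapped, and the summed level was 55.4 CPM in control cells and 192 CPM at day 1, 3.46-fold. A read was found in 77.4% of control cells and 94.8% of day 1 cells. Rps15a, another small subunit protein, had summed levels of 35.5 and 107.6 CPM, 3.03-fold, with cell medians of 25.3 and 73.4 CPM. For Rpl15, a large subunit protein next to the exit tunnel, the summed levels were 64.4 and 180 CPM, 2.80-fold, with cell medians of 57.8 and 111.1 CPM. The highest day 1 cell of Rpl15 stood at 1377 CPM and the highest control cell at 448 CPM. These genes also stood lower in control cells than in GFP cells, which had no kainate. The GFP level was 2.04-fold the control level for Rps7, 2.73-fold for Rps15a and 1.72-fold for Rpl15. For each of these genes the GFP level lay below the day 1 level. The cause of these ratios was not tested.

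Rps6, the substrate of the S6 kinases, stood at 74.4 CPM in control cells and 163 CPM at day 1 (2.19-fold). Rps6 had a cell median of 64.99 CPM in control cells and 155 CPM at day 1, and a read in 83.9% and 98.3% of cells. Its spread over day 1 cells was small for the family, with a coefficient of variation of 0.58 against 1.09 in control cells. Rpl14, a large subunit protein, stood at 120.6 against 256 CPM (2.13-fold), and at 248 CPM in GFP cells. Also past 2-fold were Rpl6 (2.08-fold), Rpl36al (2.08-fold), Rps27a (2.05-fold), which encodes a fusion of ubiquitin with a ribosomal protein, and Rpl10 (2.01-fold), a protein placed late in large subunit maturation. Rpl10 lay just inside that mark at a log2 ratio of 1.005, and Rpl34 just outside at 0.998.

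At the lower end stood Rps4l, the transcribed pseudogene, at 41.3 CPM in control cells and 17.8 CPM at day 1, a log2 ratio of -1.17. It had a read in 22.6% and 17.2% of cells, and a median of 0 CPM in both groups. Rps29, a small zinc-binding protein of the small subunit, was seen in every control and day 1 cell and stood at 113.7 against 63.6 CPM, with cell medians of 63.3 and 42.5 CPM. Rpl36a stood at 44.1 against 24.7 CPM and Rps27 at 103.2 against 75.9 CPM. Rpl7l1, a relative of Rpl7, stood at 116.3 against 84.5 CPM, although its cell median was 0 CPM in control cells and 20.6 CPM at day 1. The family thus did not move as 1 block: the ratios ran from -1.17 to 1.77.

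The 3 proteins of the P stalk, the arm of the large subunit that recruits elongation factors, differed from each other at day 1. Rplp0, its base, stood at 379 CPM in control cells and 517 CPM at day 1, with cell medians of 220 and 427 CPM. Rplp2 stood at 81.2 and 138 CPM (1.70-fold), and Rplp1 at 168 and 134 CPM, a log2 ratio of -0.32. When the cells with at least 1000 CPM of microglia markers were left out, Rplp1 stood at 73.01 and 108.7 CPM, a log2 ratio of 0.57. Rpsa, a small subunit protein that is also known as a laminin receptor, stood at 190 and 260 CPM, and Rps3, at the mRNA entry site, at 334 and 473 CPM. The Mdm2-binding pair of the large subunit had smaller ratios, 1.27-fold for Rpl5 (158 and 200.1 CPM) and 1.23-fold for Rpl11 (63.0 and 77.5 CPM).

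**Figure D2:**
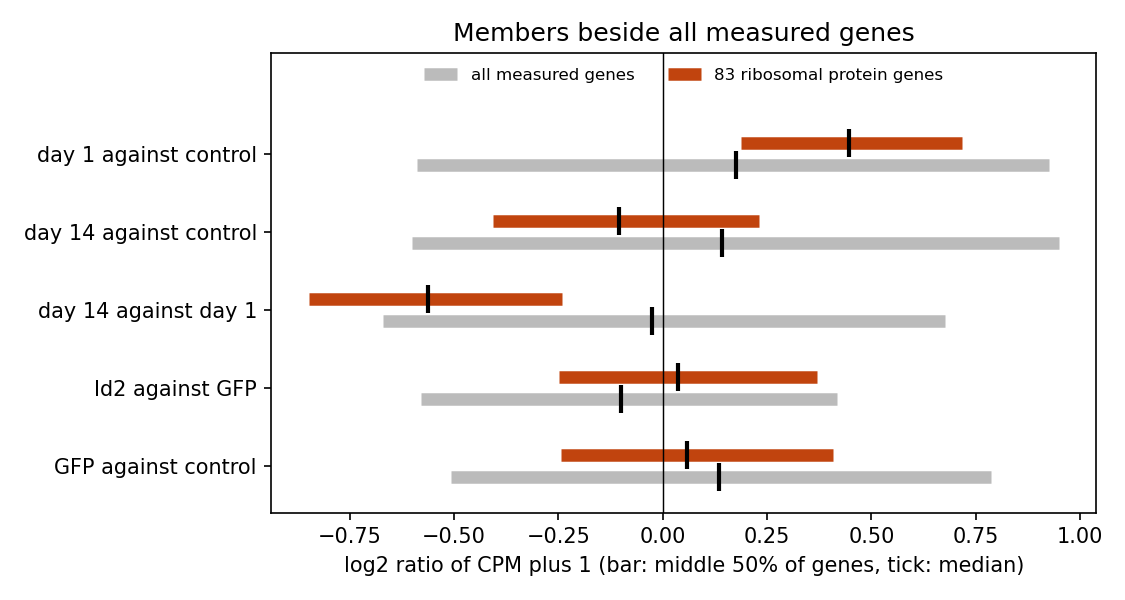
Log2 ratio of CPM plus 1 for each comparison; bars span the middle 50% of genes and ticks mark the median, for all measured genes (grey) and the 83 measured ribosomal protein genes (orange). The family's bar lies above that of all genes at its lower end at day 1 against control (median 0.45) and is displaced downward at day 14 against day 1 (median -0.56).

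At 14 days after kainate the summed level was 9437 CPM (9425 to 9449). This is 1.13-fold lower than in control cells and 1.54-fold lower than at day 1. Single day 14 cells ran from 1906 to 18761 CPM with a median of 7533; 6 of 29 lay above the day 1 median and 13 below the lowest day 1 cell. Against control cells, which also serve the day 1 comparison, 33 members were above 0 and 50 below, the median log2 ratio was -0.11 beside 0.14 for all 9469 measured genes, and 0 members were 2-fold higher and 2 lower where 23.8% and 15.8% of all genes were. Against day 1 cells, 13 were above 0 and 70 below, the median was -0.56 beside -0.02 for all 9823 measured genes, and 1 member was 2-fold higher and 17 lower where 17.4% and 16.6% of all genes were. The 17 of 83 members lower than at day 1 are 20.5%, near the share among all genes.

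Among the highest ratios at day 14 against control were those of Rpl35, a protein at the exit tunnel, at 91.97 against 48.97 CPM, and Rpl15 at 120 against 64.4 CPM. Rpl19 stood at 211 against 125.4 CPM, Rpl14 at 201 against 120.6 CPM and Rps7 at 86.6 against 55.4 CPM. The cell medians of Rpl35 were 29.98 CPM in control cells, 69.8 CPM at day 1 and 69.9 CPM at day 14, and those of Rpl19 were 107.1, 134 and 182 CPM. At the other end, Rpl22 stood at 46.9 against 104.5 CPM, Rpl9 at 126.1 against 254 CPM and the X-linked Rps4x at 71.4 against 142 CPM. Their log2 ratios were -1.14 for Rpl22, -1.01 for Rpl9 and -0.98 for Rps4x, so Rpl9 lay just past 2-fold and Rps4x just short of it. Rpl22 had a median of 27.8 CPM over control cells and 24.2 CPM over day 14 cells, much closer to each other than its summed levels. Rpl18 stood at 59.6 against 114.3 CPM, Rpl12, near the base of the stalk, at 56.3 against 107.6 CPM and Rpl27a at 41.6 against 69.3 CPM.

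Against day 1, the lowest ratios at day 14 were those of Rps4x (-1.34), Rpl27 (-1.30), Rpl22l1 (-1.30), Rpl4 (-1.29), Rpl10 (-1.25) and Rpl12 (-1.24). Rpl4 ran from 0.13 to 3920 CPM over day 1 cells with a median of 1017, and from 0 to 1002 CPM over day 14 cells with a median of 468. Its day 14 maximum thus lay below its day 1 median, and its control median was 477 CPM. Rpl41 had cell medians of 216 CPM in control cells, 376 CPM at day 1 and 132 CPM at day 14, and Rps6 of 64.99, 155 and 66.9 CPM. Higher at day 14 than at day 1 were Rps4l (1.41), Rps27l (0.47), Rpl36a (0.45), Rps20 (0.43), Rps29 (0.32) and Rpl19 (0.32), of which Rps4l alone passed 2-fold. Among the stalk genes, Rplp0 was at 262 CPM, Rplp1 at 133 CPM and Rplp2 at 116.7 CPM at day 14, with log2 ratios against day 1 of -0.98, -0.02 and -0.24.

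**Figure D3:**
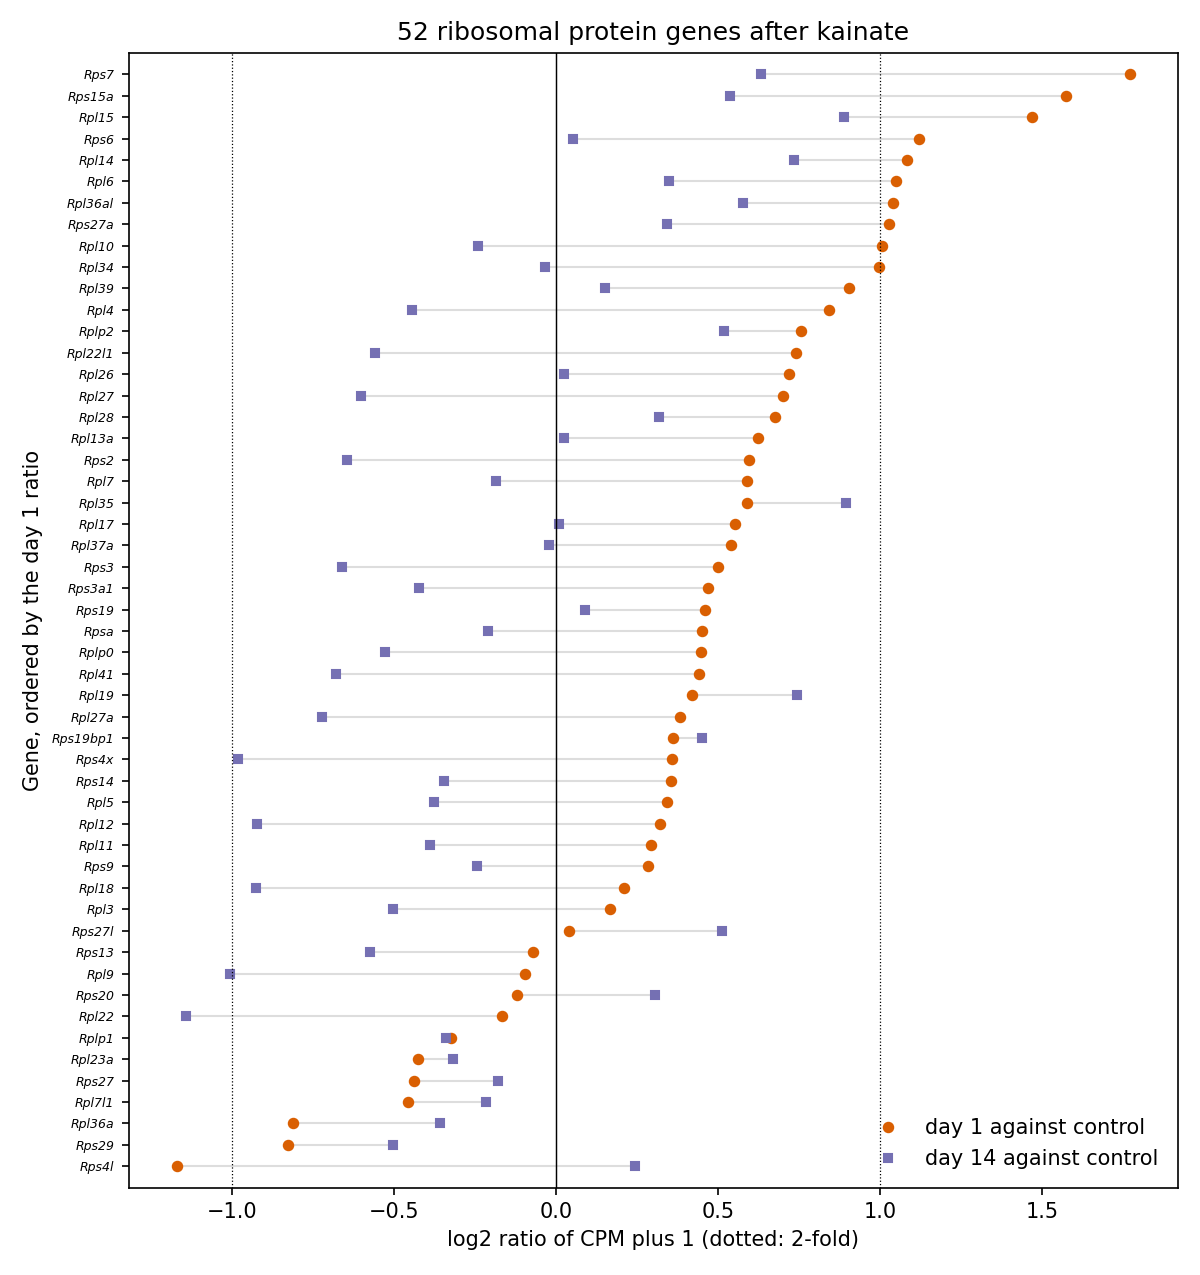
Log2 ratio of CPM plus 1 against control cells for 52 measured members that the text names, at day 1 (circles) and day 14 (squares), ordered by the day 1 ratio; the control cells are shared and dotted lines mark 2-fold. In 41 of them the square lies left of its circle, and Rps7 (1.77 at day 1 and 0.63 at day 14) is the highest circle.

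Microglia marker levels moved with the ribosomal protein level among day 14 cells and among control cells, with lower Spearman correlations in the other groups. Over the 29 day 14 cells, the summed ribosomal protein level had a Spearman correlation of 0.79 and a Pearson correlation of 0.88 with the summed microglia markers, and 0.74 and 0.80 without the 2 cells farthest from the median. These are descriptions of cells that share their library totals, with no test. Of 84 members with reads enough, 83 had a positive correlation at day 14, with a median of 0.47; it was 0.81 for Rpl23a, 0.78 for Rps9 and -0.0059 for Rpl15. In the 31 control cells the values for the sum were 0.57 and 0.70, or 0.48 and 0.29 without the 2 farthest cells. At day 1 the Spearman correlation was 0.20 and the Pearson correlation 0.62, and in Id2 cells they were 0.26 and 0.65. In GFP cells the Spearman correlation was -0.06, where only 2 of 59 cells reached 1000 CPM of the markers.

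**Figure D4:**
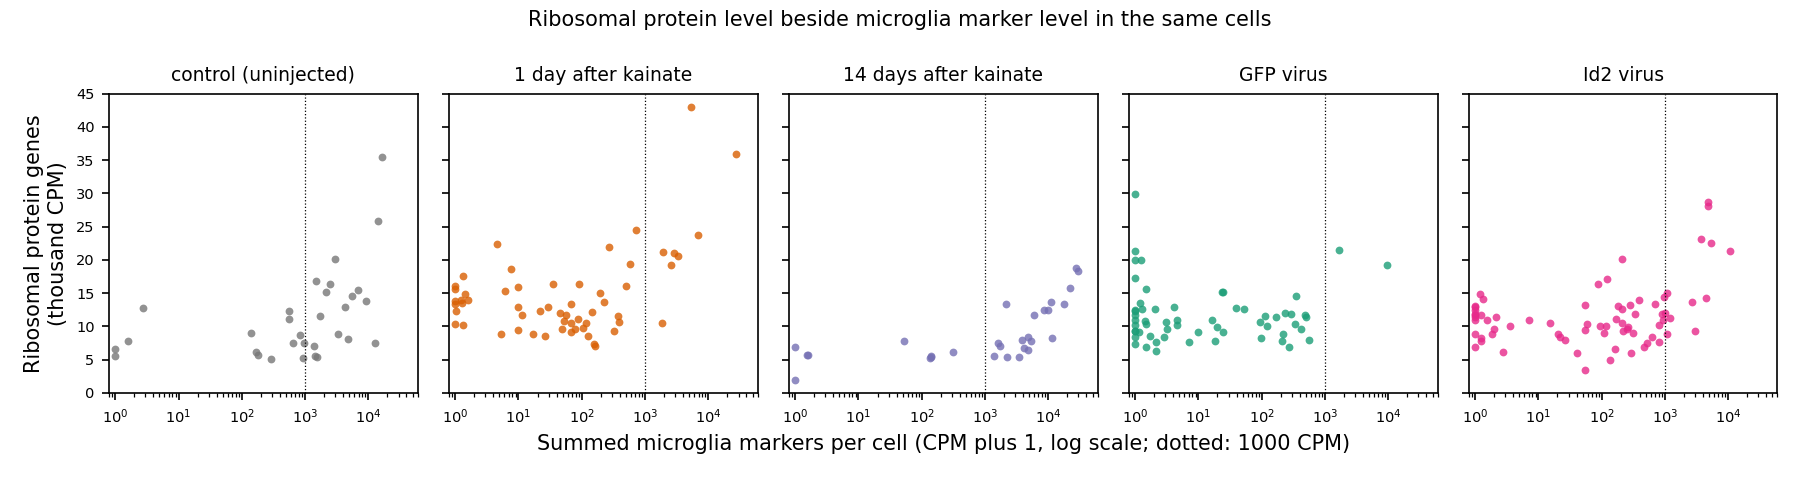
Summed level of the ribosomal protein genes (units of 1000 CPM) against summed microglia markers (CPM plus 1, log axis) in each cell, 1 panel per group; the dotted line marks 1000 CPM. At day 14 the cells with the highest marker levels have the highest ribosomal protein levels (Spearman correlation 0.79, n = 29 cells).

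Leaving out the cells whose microglia markers reached 1000 CPM made the differences in the kainate comparisons larger. It did so for GFP against control cells too, neither of which had kainate. The summed level was then 7070 CPM in 14 control cells, 13302 CPM in 50 day 1 cells and 5932 CPM in 9 day 14 cells. In 57 GFP cells it was 11089 CPM. With all cells the level was 10674 CPM in control cells, 14561 CPM at day 1 and 11208 CPM with GFP. The larger ratios at day 1 and with GFP thus came with a lower control level. Day 1 stood 1.88-fold above control, with 38 members 2-fold higher and 1 lower where 30% and 18.5% of all genes were, and a median log2 ratio of 0.96 beside 0.23 for all genes. Day 14 stood 2.24-fold below day 1, with 1 member 2-fold higher and 46 lower where 18.7% and 28.6% of all genes were, and a median of -1.25 beside -0.22 for all genes. In these cells Rpl39 (2.50), Rpl26 (2.40), Rps7 (2.38) and Rpl13a (2.24) had the highest log2 ratios at day 1 against control, and Rpl12 (-4.10) and Rpl27a (-2.76) the lowest at day 14 against day 1. Rpl39, Rpl26 and Rpl13a were chosen here after their values were seen. Of the 16 members below 0 at day 1 against all control cells, 10 were above 0 without the marker-rich cells. Rps29 was then at 52.4 against 25.9 CPM, and the log2 ratio of Rpl36a was 0.28, that of Rps27 0.31 and that of Rpl7l1 0.20. Of the 13 members above 0 at day 14 against day 1, 9 turned below, among them Rps20 (-1.50), Rpl36a (-0.95), Rps29 (-0.48) and Rpl19 (-0.44). At day 14 against control Rpl19 turned as well, to -0.12. For day 14 against control, 5 members were 2-fold higher and 11 lower where 28.8% and 26.6% of all genes were, and the sum was 1.19-fold lower.

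Single control libraries set part of these values. Control replicate 27 holds 6.38% of the control reads and has the highest ribosomal protein level of the control cells, 35464 CPM, and the highest microglia marker level, 16470 CPM. Without it, the log2 ratio of the sum was 0.70 at day 1, with 20 members 2-fold higher and 0 lower, and 0.07 at day 14, so that the direction at day 14 turned. Control replicate 26, the deepest control cell with 11.8% of the reads, stood at 5412 CPM; without it the ratios were 0.36 at day 1, with 7 members higher and 1 lower, and -0.27 at day 14, with 0 higher and 4 lower. Without control replicate 37 the day 1 count of higher members was 6. At day 14, leaving out replicate 9 gave 4 lower members against control in place of 2. Control cells titled J stood at 11446 CPM (22 cells), those titled with a bare number at 7497 CPM (7 cells) and those titled T at 13366 CPM (2 cells). The day 1 level of 14561 CPM was above all of these, and the day 14 level of 9437 CPM lay among them. Median mitochondrial shares were 0.823% in control cells, 0.201% at day 1 and 0.319% at day 14. Over control cells the mitochondrial share had a Spearman correlation of 0.62 and a Pearson correlation of 0.49 with the summed ribosomal protein level, or 0.60 and 0.56 without the 2 farthest cells. The Spearman correlation was 0.31 at day 1, -0.08 by day 14, 0.31 over GFP cells and 0.32 over Id2 cells.

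Between the virus groups the family's level hardly differed. The sum was 11208 CPM with GFP (11194 to 11221) and 11564 CPM with Id2 (11552 to 11577), 1.03-fold. Cells ran from 6268 to 29821 CPM with a median of 10801 with GFP and from 3434 to 28672 CPM with a median of 10983 with Id2; 37 of 71 Id2 cells lay above the GFP median. On the log2 scale 45 members were above 0 and 38 below, the median was 0.04 beside -0.10 for all 7846 measured genes, and 1 member was 2-fold higher and 1 lower where 10.2% and 12.6% of all genes were. Both virus groups carry 2 title sets, and the direction of the sum differed between them: Id2 cells stood at 12509 against 11507 CPM among titles up to IDS95 and at 9588 against 10049 CPM among titles from IDS101. Without Id2 replicate 42 the counts past 2-fold were 0 and 1, without Id2 replicate 12 they were 1 and 2, and without GFP replicate 30 they were 2 and 1.

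The member past 2-fold upward with Id2 was Rpl12, at 41.1 CPM with GFP and 100.3 CPM with Id2, 2.44-fold, with cell medians of 0.814 and 37.3 CPM. Without Id2 replicate 42 Rpl12 was no longer past 2-fold, and 1 cell held 19.96% of its Id2 reads. Its log2 ratio was 0.85 without the cells rich in microglia markers. Its level with Id2 is close to the 107.6 CPM of control cells, and the GFP group was the lowest of the 5 groups for this gene. Rpsa stood at 157 and 273 CPM, Rpl37a at 74.1 and 126.1 CPM and Rplp0 at 219 and 354 CPM. Rpl22 stood at 58.4 and 93.7 CPM with a cell median of 0 CPM in both groups, and Rps3a1 at 182 and 289 CPM with cell medians of 111.9 and 215 CPM. Of these genes, Rpl12 and Rps3a1 also had the largest relative differences between cell medians. At the lower end, Rps19bp1, the binding protein, stood at 54.9 CPM with GFP and 20.5 CPM with Id2, a log2 ratio of -1.38, with a read in 23.7% and 15.5% of cells. Rps15a followed at 96.98 and 50.6 CPM with cell medians of 23.1 and 0.598 CPM. Rpl34 (54.0 and 30.2 CPM), Rpl28 (63.1 and 38.2 CPM), Rps13 (136 and 84.5 CPM) and Rps27l (37.1 and 23.6 CPM) were next.

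GFP cells and uninjected control cells, the controls of the 2 experiments, had like summed levels of the family, 1.05-fold apart. Their cell medians were further apart, at 10801 CPM with GFP and 8899 CPM in control cells. Of 59 GFP cells, 45 lay above the control median. This comparison shares the control cells with those after kainate. Of 83 members 47 were above 0, the median was 0.06 beside 0.13 for all 8085 measured genes, and 4 members were 2-fold higher and 1 lower where 19.3% and 13% of all genes were. The 4 were Rps15a (96.98 against 35.5 CPM), Rpl22l1 (330 against 140 CPM), Rpl14 (248 against 120.6 CPM) and Rps7 (112.9 against 55.4 CPM), followed by Rpl17 (172 against 87.1 CPM) and Rpl15 (110.5 against 64.4 CPM). The lower member was Rpl12 (41.1 against 107.6 CPM), and low ratios were also those of Rps29 (56.4 against 113.7 CPM), Rps2 (128.1 against 238 CPM), Rpl7l1 (64.96 against 116.3 CPM) and Rpl22 (58.4 against 104.5 CPM). When the cells whose microglia markers reached 1000 CPM were left out, the sum was 1.57-fold higher with GFP, with 25 members 2-fold higher and 1 lower where 25% and 16.5% of all genes were, and without control replicate 26 the counts were 2 and 4 and the sum turned to -0.02 on the log2 scale. Of the 36 members below 0, 29 were above 0 without the marker-rich cells, among them Rps29 (1.09) and Rpl7l1 (0.21). Without control replicate 27 the sum was 0.32 on the log2 scale, with 6 members 2-fold higher and 1 lower. Without GFP replicate 22 the counts were 2 and 2.

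Several members have paralogs, of which some can take their place in the ribosome. Rpl22l1 stood above its partner Rpl22 per kilobase of transcript in every group: 267 against 51.03 CPM per kilobase in control cells, 447 against 45.5 at day 1, 181 against 22.9 at day 14, 629 against 28.5 with GFP and 456 against 45.8 with Id2. Rpl22l1 was found in 24 of 31 control cells, 56 of 58 day 1 cells, 21 of 29 day 14 cells, 50 of 59 GFP cells and 56 of 71 Id2 cells, and Rpl22 in 21, 41, 20, 27 and 30. The pair was found in the same cell in 18, 40, 16, 24 and 25 cells. The paralog was thus the more abundant of the pair throughout.

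The order of Rpl36al and Rpl36a was not the same in all groups: 70.0 against 91.3 CPM per kilobase in control cells, 145 against 51.1 at day 1, 105.2 against 70.8 at day 14, 106.7 against 60.8 with GFP and 87.1 against 73.3 with Id2. Rps27l stood below Rps27 per kilobase in every group, at 112.05 against 299 in control cells, 161 against 264 at day 14 and 47.2 against 349 with Id2. Rpl7l1 stood below Rpl7 in every group as well, at 88.7 against 252 CPM per kilobase in control cells and 64.5 against 379 at day 1. The pseudogene Rps4l stood at 52.3 against 145 CPM per kilobase for Rps4x in control cells, 22.5 against 187 at day 1 and 62.2 against 73.2 at day 14, the nearest approach of that pair. At day 14 its reads came from 8 of 29 cells, and the highest of these held 38.5% of them. Rps27 and Rpl36a share 98.7% and 85.5% of their windows with other genes, so reads of these pairs could have been split.

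**Figure D5:**
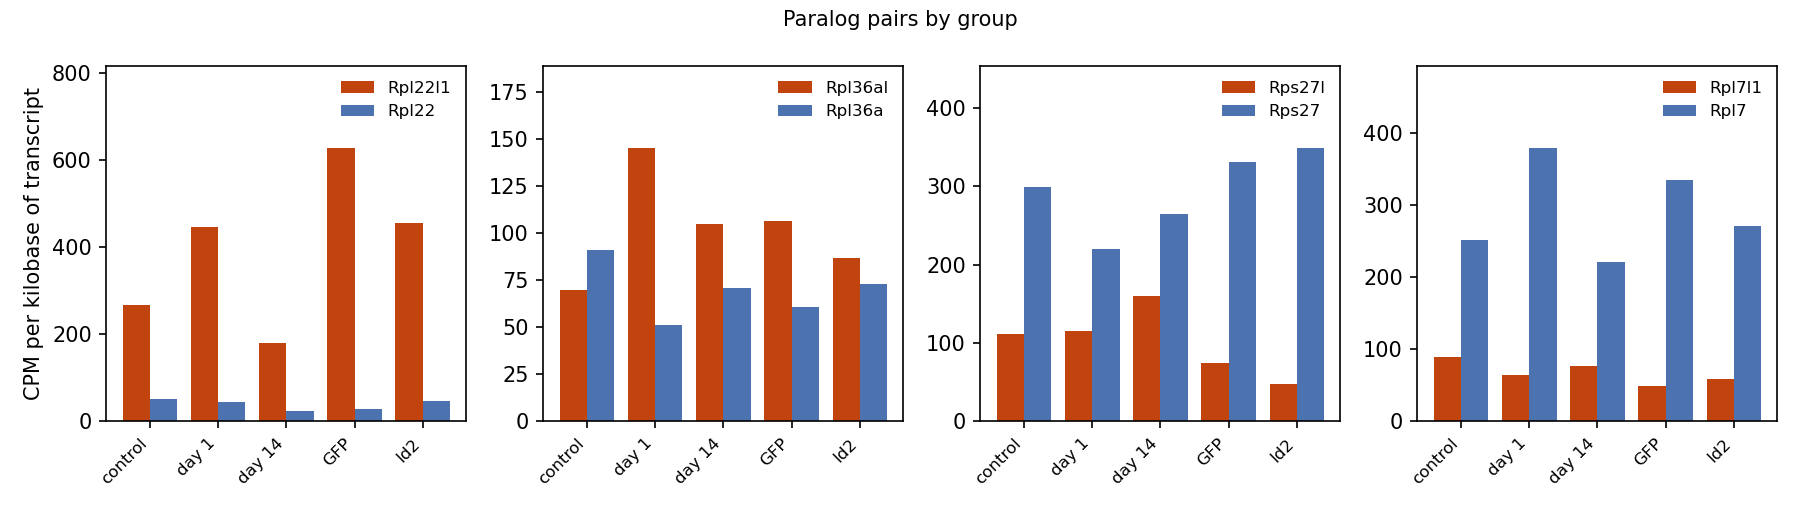
CPM per kilobase of transcript of 4 paralogs (orange) and their partners (blue) in the 5 groups; each bar is the level of the summed counts of a group and there is no replicate error. All cells of each group are included. Rpl22l1 exceeds Rpl22 in every group, and Rpl36al exceeds Rpl36a in all groups except control.

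Paralogs known mainly from testis or muscle were at or near 0. Rpl39l had 0 reads in control, day 1, day 14 and GFP cells and 1 read with Id2, while Rpl39 had between 1990 and 26185 reads in a group. Rpl3l, a muscle form of Rpl3, had 4 reads with GFP, 5 with Id2 and 0 in the other groups, and Rpl10l had 1 read at day 14, 1 with Id2 and 0 elsewhere. Rps27rt, a copy of Rps27, stood between 0.715 and 1.39 CPM, although a read was found in 17 of 31 control cells and 46 of 58 day 1 cells, nearly all of which also had reads of Rps27. Rpl26l1 is not among the symbols of the table.

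Members whose annotated start is the C of a pyrimidine run had higher median ratios than the others in all 5 comparisons. For the 13 such measured members and the 49 with another base or no run there, the medians at day 1 against control were 0.72 and 0.46. They were 0.36 and -0.22 at day 14 against control, -0.36 and -0.66 at day 14 against day 1, 0.09 and -0.00 for Id2 against GFP and 0.49 and 0.01 for GFP against control. Rpl15, Rps15a, Rps6 and Rpl14, whose windows are printed above, belong to the first set, and Rps7, with the highest day 1 ratio, to the second. The first set also holds Rps27, with a log2 ratio of -0.44 at day 1 against control, so the sets overlapped. The comparisons share their cells, so these medians are not independent of each other. The annotated start need not be the start used in these cells, and a missing run says only that the letters are not in this window.

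Other translation genes had median ratios between 0.30 and 0.50 at day 1 against control, beside 0.45 for the ribosomal proteins and 0.17 for all genes. The shares of all genes past 2-fold were 23.2% higher and 15.2% lower in that comparison, 17.4% and 16.6% at day 14 against day 1, and 10.2% and 12.6% for Id2 against GFP, and the counts of each list stand beside them. The list of other TOP transcripts has 22 genes in the table, of which 5 are also among the elongation factors and 5 among the initiation factors. At day 1 against control the median log2 ratio was 0.44 for 8 measured elongation factors (3 were 2-fold higher, 0 lower), 0.30 for 36 initiation factors (9 and 1), 0.50 for 22 other TOP transcripts (6 and 0), 0.50 for 54 ribosome biogenesis genes (20 and 3) and 0.46 for 77 mitochondrial ribosomal proteins (18 and 1). At day 14 against day 1 the medians were -0.59 for elongation factors (1 higher, 2 lower), -0.31 for initiation factors (2 and 6), -0.65 for other TOP transcripts (0 and 5), -0.43 for biogenesis genes (3 and 13) and -0.03 for mitochondrial ribosomal proteins (6 and 6). The elongation factors and other TOP transcripts, which share genes, had medians close to the -0.56 of the cytosolic ribosomal proteins, and the mitochondrial ones did not. For Id2 against GFP the medians were 0.22 (elongation), -0.08 (initiation), 0.29 (other TOP), -0.05 (biogenesis) and -0.01 (mitochondrial ribosome), with 0, 2, 0, 6 and 8 genes 2-fold higher and 0, 1, 0, 7 and 3 lower. For GFP against control, both without kainate, the medians in that order were 0.01, -0.21, 0.01, 0.30 and 0.46, beside 0.13 for all genes. There 1, 4, 1, 9 and 20 genes were 2-fold higher and 1, 1, 0, 2 and 6 lower. The shares of all genes were 19.3% and 13%.

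Among elongation factors, Eef1g, a subunit of the exchange factor complex, had the highest ratio at day 1, at 185 against 53.5 CPM in control cells, and the lowest at day 14 against day 1, at 57.3 CPM. Eef1a1, which delivers aminoacyl-tRNA, stood at 1601 CPM in control cells, 2147 at day 1 and 1079 at day 14, and Eef2, the translocase, at 191, 489 and 324 CPM. In GFP cells, which had no kainate, Eef1g stood at 136 CPM, well above control cells. Eef1a1 at 1615 CPM and Eef2 at 192 CPM were close to control cells there. Eef1d had the lowest ratio of that list at day 1, at 78.6 against 107.6 CPM. For initiation, Eif2b3, a subunit of the exchange factor for eIF2, stood at 45.5 against 3.22 CPM and Eif3a at 194 against 514 CPM at day 1. Of the ribosome biogenesis genes, Utp20, a small subunit processome component, stood at 37.7 against 0.402 CPM and Heatr1 at 18.6 against 46.6 CPM. GFP cells had 13.8 CPM of Utp20. Of the other TOP transcripts Vim stood at 134 against 0.625 CPM and Pabpc1, the poly(A)-binding protein, at 89.5 against 137 CPM. The mitochondrial genes at the ends of the list were Mrpl19, at 72.5 against 9.53 CPM, and Mrpl1, at 17.9 against 57.4 CPM.

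In the list of mTOR and S6 kinase pathway genes the median was 0.30 at day 1 against control, with 10 of 24 measured genes 2-fold higher and 3 lower where 23.2% and 15.2% of all genes were. It was 0.30 at day 14 against control too, with 6 of 24 higher and 2 lower where 23.8% and 15.8% of all genes were. Mlst8, a subunit of both mTOR complexes, stood at 56.2 CPM at day 1 against 0.268 CPM in control cells, and Mycl, a Myc family factor, at 14.4 against 151 CPM. Mtor itself stood at 18.9 CPM in control cells, 69.6 at day 1 and 62.7 at day 14. In the virus groups, which had no kainate, Mtor stood at 74.9 CPM with GFP and 76.1 CPM with Id2. With GFP, Mlst8 stood at 23.3 CPM and Mycl at 88.1 CPM. The S6 kinase gene Rps6kb1 stood at 46.3, 63.9 and 31.5 CPM, and Larp1, the TOP-binding protein, at 56.0, 59.2 and 88.2 CPM. With virus, Rps6kb1 was at 168 CPM with GFP and 81.1 CPM with Id2 (log2 ratio -1.04), and Larp1 at 25.1 and 70.1 CPM (1.45), the lowest and the highest ratios of that list. Over the whole list 2 of 20 genes were 2-fold higher with Id2 and 1 lower, where 10.2% and 12.6% of all genes were, with a median of 0.05.

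Ribosomal proteins whose names fall outside the rule gave values of the same order. Gnb2l1, the small subunit protein RACK1, stood at 231 CPM in control cells, 320 at day 1 and 155 at day 14, and Fau, a ubiquitin-like fusion with a small subunit protein, at 116.1 CPM in control cells and 101.3 CPM at day 14.

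Within groups, the levels of the 2 subunits followed each other from cell to cell. The Spearman correlation of the summed Rpl and Rps levels was 0.73 over control cells, 0.85 at day 1, 0.84 by day 14, 0.50 in GFP cells and 0.49 in Id2 cells. Single pairs of members were much less alike, with a median correlation of 0.19, 0.24, 0.33, 0.09 and 0.10. The summed level also followed that of the elongation factors, at 0.68, 0.76, 0.80, 0.34 and 0.24. All of these are across cells that share a denominator and differ in depth, and carry no test. Over the 59 GFP cells, among 35 genes with a read in each of them, those with levels most like the family's sum by Spearman correlation included Tmsb4x (0.56), Ppia (0.48), Cfl1 (0.39) and Calm2 (0.39).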

How the data were processed

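Single-cell Patch-seq libraries were made with Nextera XT, per the labels' protocols. The submitters' processing notes name Trimmomatic, STAR, featureCounts and GRCm38; their versions, strand setting and treatment of multiply mapped reads were not given in the sources used here. Counts, whole numbers of reads for 22800 genes in 291 cells, were deposited by the authors. They also deposited a scaled signal for 252 cells, each cell's counts times 1 factor (0.187 to 287), used only as an alternative. The names of the deposited tables are the other way round, so units were settled on the values. Of 304 labelled samples, 13 had no column and were not used here; 248 cells labelled as passing were used.

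Each group's cells were pooled by adding their counts, and CPM were taken of the pool; log2 ratios use CPM plus 1, and folds use CPM. Reads carry no stated molecular identifiers, so exact Poisson intervals cover counting error only. Each group counts as 1 sample because no animal is named, so no p-value was computed. A gene was measured in a comparison at 5 CPM or more in a group and a read in at least 20% of its cells. Gene positions come from GENCODE M21 and starts from RefSeq, both GRCm38. Per-kilobase levels use the protein coding transcript of median length. The ratio of summed CPM was tested on simulated data in which all cells of a group shared the same profile. That test covered read sampling only and not differences between cells. Alternatives covered cell weighting, unit, quality labels, depth, denominator, microglia markers, title series, control group, pseudocount, filter and thinning.

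Members and lists were chosen with earlier results of these data known. Named are the 6 highest and 6 lowest members of each comparison, the stalk, Rpsa, Rps6, Rps27a, Rps3, Rpl5, Rpl10, Rpl11 and the paralog pairs, the 5 highest members per kilobase and 5 lowest, the ends of each list and the 5 genes most like the sum; a few genes this rule names are not reported here. Python 3.11.15, numpy 2.4.6, pandas 2.3.3, scipy 1.17.1 and matplotlib 3.10.9 were used.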

Additional observations from a re-analysis of the deposited data

Results flagged for a closer look

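Some cells outside the comparisons carry ribosomal protein reads above the median of the control cells (8899 CPM). The 2 cells of the side opposite the injection at day 1 had a median of 14795 CPM. The 2 passing cells labelled low_DG had a median of 11077 CPM. The 10 control libraries labelled as failing quality control had a median of 13990 CPM, with a range from 592 to 71679 CPM, and the 5 failing day 1 libraries one of 13365 CPM.

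The 18 pseudogene symbols left out by the name rule summed to 5.40 CPM in control cells and lay above that at day 1 (8.74 CPM), with GFP (27.4 CPM) and with Id2 (9.81 CPM). In GFP cells 19.6 CPM of this came from Rpl9-ps1. All of these sums are small beside the 10674 CPM of the family in control cells.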

How the results depend on the processing

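No paired analysis was possible because no label number pairs cells across groups and no test was made. Of the alternatives for the summed level and the count of members past 2-fold, 37 stayed within the counting interval or within 1.5 times the count and 68 did not; the cause was not tested. Of 3005 values for named members and medians, 305 lay on the other side of 0, of which 53 without cells rich in microglia markers and 34 with the other controls; in 3 the reported ratio was past 2-fold. Log2 ratios of the sum are given in the order day 1 against control, day 14 against control, day 14 against day 1, Id2 against GFP and GFP against control, and counts join both directions.

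Averaging over cells gave 0.36, -0.36, -0.72, -0.011 and 0.049, with counts of 5 for day 1, 6 for day 14 against control and 3 for GFP against control. The scaled signal gave 0.35, -0.42, -0.76, 0.030 and 0.022, with 6 for day 1 and 9 for day 14 against control. Including failing cells gave 0.43, -0.21, -0.64, 0.088 and 0.027. Without the deepest 10% of cells the values were 0.38, -0.31, -0.68, 0.014 and -0.014, with 4 for day 14 against control and 4 for Id2. Leaving Id2, mitochondrial genome genes, Rn18s-rs5 and Lars2 out of the total gave 0.39 at day 1 (count 7), -0.24 at day 14 against control, 0.11 for Id2 and 0.012 for GFP against control.

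Without cells rich in microglia markers the values were 0.91, -0.25, -1.17, -0.066 and 0.65, with 39, 16 and 47 members in the kainate comparisons and 26 for GFP against control. Controls titled J gave 0.35 (7), -0.28 and -0.030 (8) in the 3 comparisons with control cells. The other controls gave 0.69 (29), 0.068 (15) and 0.32 (14), where 33.6%, 35.2% and 29.6% of all genes were 2-fold higher and 18.6%, 19.1% and 17.9% lower; against these Rps4l was at 0.024 at day 1 and Rpl22 at 1.11 at day 14. GFP cells as the control gave 0.38 (7) at day 1 and -0.25 (6) at day 14. For Id2 against GFP, titles up to IDS95 gave 0.12 (7) and those from IDS101 gave -0.068 (12), with Rps19bp1 at 0.37. Adding 5 CPM left 1 at day 14 against control, and thinning to 100000 reads left 6 at day 1 and 1 for GFP against control.

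Chosen after seeing the data, the 37 members with at most 50% shared windows gave 0.44, -0.20, -0.64, -0.0057 and 0.12. Leaving out each cell in turn gave sums from 0.36 to 0.70, -0.27 to 0.07, -0.71 to -0.58, 0.0088 to 0.08 and -0.02 to 0.32. The direction of the sum thus held in each alternative tried at day 1 against control and day 14 against day 1, and turned in the others in at least 1 alternative. Differences between groups rest on cells of unknown animals, and the 9 day 14 cells and 14 control cells low in microglia markers are few.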
